A study of Mus musculus with 4 samples.

Results

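Wy14643, a synthetic agonist of the nuclear receptor PPARα, was compared with the control diet in liver of mice that lack the receptor, so that what remained of the response could be described without PPARα. The comparison rests on 2 of the 4 arrays of the study, PPARα-null control and PPARα-null Wy14643, and its members are all 22626 probe sets of the array that do not carry an Affymetrix control name. Male mice aged 12 to 20 weeks received normal food or food with 0.1% (w/w) Wy14643 mixed into it for 5 days. The PPARα-null mice are labelled 129S4/SvJae and the wild-type mice 129S1/SvImJ, so the genotypes also differ in substrain, and PPARα is missing from every cell type of the null animals and not from hepatocytes alone. Liver RNA was pooled within each group and each pool was hybridized to 1 Affymetrix MOE430A array. The series description gives 5 mice per group, and the study's results state a number per pool that can be smaller. With 1 array a side there is no replicate check and no test over mice, and every difference below describes these 2 pools. How precise a ratio is was limited by there being so few arrays.

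PPARα forms a heterodimer with the retinoid X receptor and, when a fatty acid or a fibrate-like agonist is bound, turns on genes for the uptake, activation and oxidation of fatty acids, foremost the Cyp4a omega-hydroxylases and the peroxisomal enzymes. Its close relatives PPARδ and PPARγ bind the same kind of DNA element and are present in liver at lower levels or in other cells. Liver RNA comes mostly from hepatocytes, with smaller parts from Kupffer cells (the resident macrophages), sinusoidal endothelial cells and stellate cells. In such bulk RNA, fewer cells of a type and less RNA per cell cannot be told apart.

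Ppara itself had an intensity of 326 on the PPARα-null control array and 428 on the PPARα-null Wy14643 array, against 847 and 1250.1 on the wild-type control and Wy14643 arrays. Its signal was lowest on both null arrays but well above background, and the sources used here do not say if its probes fall within the targeted exons, so it checks the labels only in part. An intensity above 13.1, the 90th percentile over the null arrays of 109 probe sets of 75 genes that liver is not known to express, was taken as above background, and 52.8% and 53.6% of probe sets passed on the control and Wy14643 arrays. All 10 measured hepatocyte markers were above background on both arrays and none differed by 1.5-fold (median log2 ratio 0.02). Albumin (Alb) stood at 13675 and 15144, and Hnf4a, a hepatocyte transcription factor, lay nearest to the threshold at 1786 and 1205.

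The response of PPARα-null liver was narrow, and more probe sets were lower than higher on Wy14643. Of 22626 probe sets, 298 (1.32%) were at least 1.5-fold higher and 615 (2.72%) at least 1.5-fold lower, and the standard deviation of the log2 ratio over all probe sets was 0.28. In wild-type liver the same diet gave 1938 probe sets (8.57%) in each direction and a standard deviation of 0.64. At 2-fold, 26 probe sets were higher and 120 lower in PPARα-null liver, and at 4-fold 4 and 8. Among the 7495 named genes above background on at least 1 of the 2 null arrays, each read from 1 probe set, 170 (2.27%) were higher and 330 (4.4%) lower, and these shares (1.48% and 2.71% of all 12393 named genes, bright or not) are the background against which each gene list is given below. The excess of lower over higher probe sets depended on the scaling: 298 against 615 became 481 against 478 when each array was centred on its median, a shift of -0.06 on the log2 scale between the 2 arrays, and 322 against 582 with cyclic loess. Where a called gene had further probe sets above background, 61 of 84 of those of higher genes (72.6%) and 140 of 166 of those of lower genes (84.3%) pointed the same way, while 8 and 43 also reached 1.5-fold.

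Among the 6906 genes above background on both arrays, of which 2.09% were higher and 4.3% lower, Cyp4a14 stood at the top of the higher ones and genes of macrophages and sinusoidal cells were among the lower ones. Of the 20 genes with the largest ratio in the lower direction, 3 are on the list of Kupffer cell markers, 3 on that of sinusoidal endothelial markers and 1 on that of cholesterol synthesis. Of the 20 in the higher direction, 2 are neutrophil and 2 are B cell markers. In the plot of ratio against level, these genes lie apart from a cloud that is widest at moderate levels. Of probe sets with a mean log2 intensity between 6 and 8, 3.18% were higher and 7.5% lower, against 0.839% and 1.68% of those over 10.

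**Figure D1:**
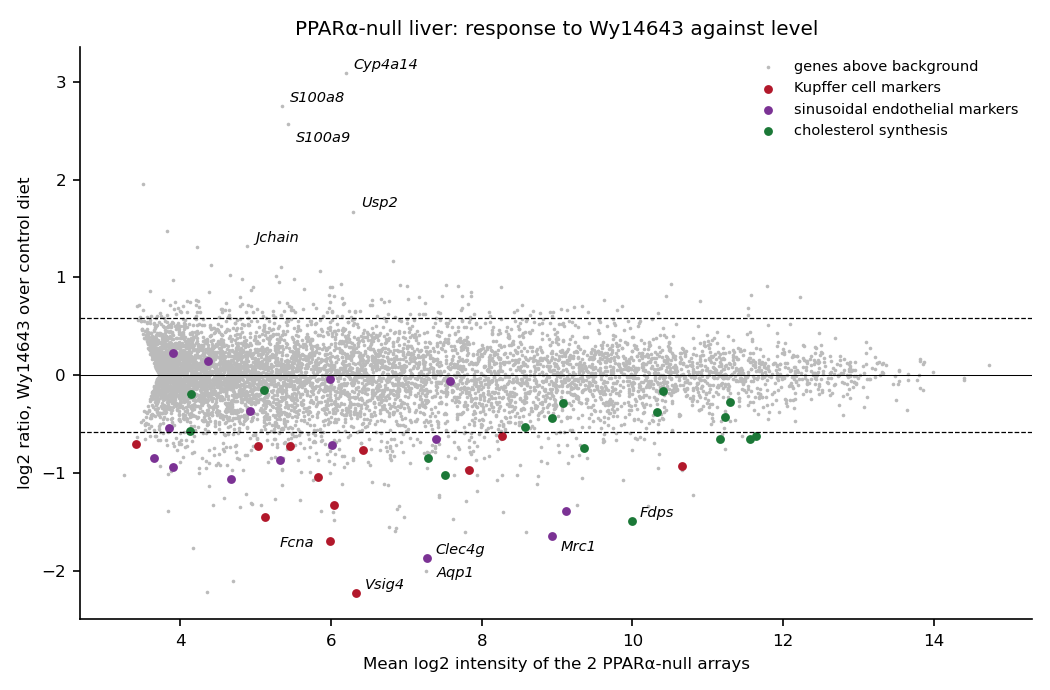
Log2 ratio, Wy14643 over control, in PPARα-null liver (vertical) against the mean log2 intensity of the 2 arrays (horizontal) for 7495 genes above background on at least 1 of them, with 3 gene lists in colour and dashed lines at 1.5-fold. Cyp4a14 stands highest at 3.09 and Vsig4 lowest at -2.23, and all coloured cholesterol synthesis genes lie below 0.

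Of the classical PPARα target genes, a few were still higher on Wy14643 without the receptor, each below its level in wild-type liver on the same diet. Cyp4a14, a microsomal omega-hydroxylase of fatty acids, had an intensity of 25.0 in PPARα-null controls and 213 on Wy14643, an 8.51-fold difference. This was the largest of all named genes above background on both arrays, each read from 1 probe set. Among all probe sets above background on both arrays the highest log2 ratio was 3.22, against 3.09 for Cyp4a14. The probe set with that ratio does not stand for a named gene. In wild-type liver Cyp4a14 stood at 2717 and 9932, so the null array with Wy14643 remained under the wild-type control. Vnn1, the gene of the pantetheinase vanin-1, was at 17.6 and 35.9 (2.04-fold higher) in PPARα-null liver, against 1561 and 6895 in wild-type liver. Its null values lie near background, and with 32 added to every intensity, which shrinks the ratios of dim genes, Vnn1 was no longer called. The close paralogs Cyp4a31 and Cyp4a12a stayed below background on both null arrays, at 8.10 and 9.64 and at 7.56 and 10.02, while they reached 3588 and 3423 on the wild-type Wy14643 array. Since the Cyp4a genes share much of their sequence, the part of each paralog in a probe set's signal is uncertain. The other members of the omega-hydroxylation list lay between the thresholds: Aldh3a2, a fatty aldehyde dehydrogenase, at 905 and 1278, Cyp4f15 at 534 and 593 and Cyp4f14, a leukotriene hydroxylase, at 2856 and 1962.

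Peroxisomal genes were higher in a few cases, and most lay between the thresholds. Of 24 measured genes of peroxisomal oxidation, all above background on at least 1 null array, 4 were higher (16.7%, against 2.27% of all genes) and 1 was lower, and the median log2 ratio was 0.08. In wild-type liver 16 of the 24 were higher (66.7%, against 15.0% of all genes there) and the median was 1.18. Acot8, a peroxisomal acyl-CoA thioesterase, was at 27.5 and 59.1 (2.15-fold higher), and Acaa1b, a peroxisomal thiolase, at 3607 and 6291 (1.74-fold). Ehhadh, the bifunctional enzyme of peroxisomal β-oxidation, was at 2339 and 3750.0 (1.60-fold), and Ech1, a dienoyl-CoA isomerase, at 544 and 851 (1.56-fold). Acaa1b and Ech1 stayed below the wild-type control level even on Wy14643, whereas Ehhadh passed it (3522). Pex11a, which takes part in peroxisome division and reached 5014 on the wild-type Wy14643 array, was at 322 and 358 in null liver. Abcd2, a peroxisomal transporter of very long-chain fatty acids, was at least 1.58-fold lower, from 20.7 to below background.

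**Figure D2:**
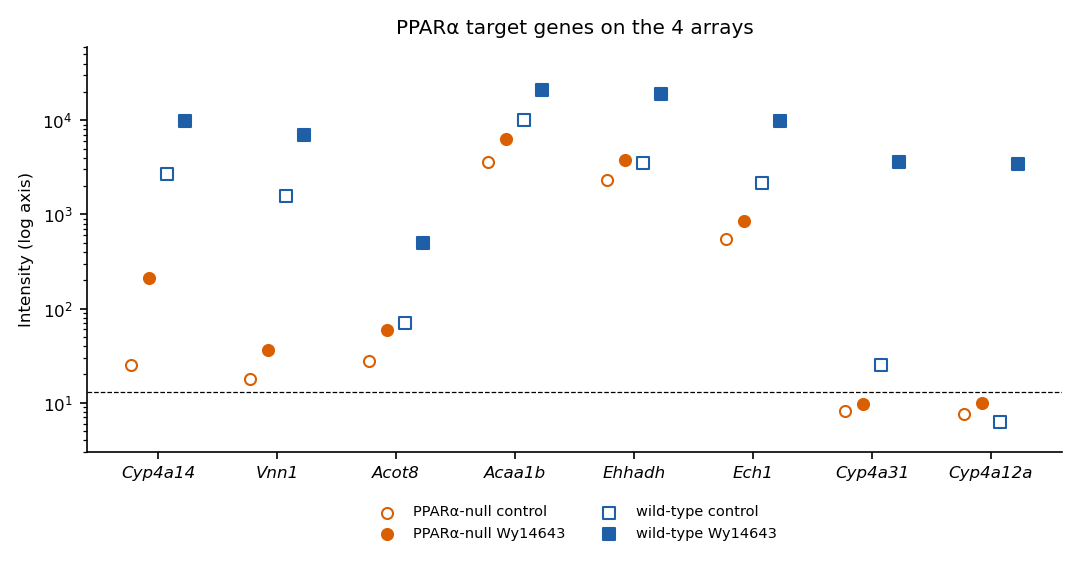
Intensity on a log axis of 8 PPARα target genes on the 4 arrays, with open symbols for the control diet, filled symbols for Wy14643 and a dashed line at background (13.1). Cyp4a14, Vnn1, Acot8, Acaa1b, Ehhadh and Ech1 were higher on Wy14643 in PPARα-null liver (orange circles), and Cyp4a31 and Cyp4a12a stayed under the line there.

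Few of the remaining target genes of PPARα were higher. Mitochondrial oxidation had 0 of 22 genes higher and 1 lower (median 0.13), namely Etfdh, which passes electrons from acyl-CoA dehydrogenases to ubiquinone, at 669 and 446. The list of thioesterases, synthetases and lipid handling had 1 of 37 genes higher, Vnn1, and 5 lower (13.5%, against 4.4% of all genes), or 0 higher and 5 lower with 32 added to every intensity. The lower ones were Txnip (327 and 118), Acot3 (265 and 159), Fabp5, Fabp7 and Cd36. Fabp5, a fatty acid binding protein, was at 1885 and 747 (2.52-fold lower), and its other probe set gave a log2 ratio of -2.09. In wild-type liver Fabp5 was level, at 3277 and 3398. Fabp7, another binding protein, was at 44.1 and below background, at least 3.37-fold lower. Cd36, the fatty acid translocase, stood at 683 and 396 in null liver and at 1042 and 7290.0 in wild-type liver, though its dimmer probe sets gave only -0.22 and -0.42 in null liver. Over the 4 target lists, 74 of 99 measured genes were higher in wild-type liver, and 63 of these were above background in null liver, where 6 were higher, 3 lower and 54 between. These 63 were chosen by their wild-type ratio. Over all measured members, the median log2 ratios in null liver were 0.33 for omega-hydroxylation, 0.08 for peroxisomal oxidation, 0.13 for mitochondrial oxidation and 0.07 for the list of thioesterases, synthetases and lipid handling. In wild-type liver the same medians were 2.00, 1.18, 0.86 and 1.60, and the differences were not tested.

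The receptors that Wy14643 or bile acids and drugs could act on differed little on these arrays. Ppard was below background on both null arrays, and Pparg was at 43.3 and 51.0. Nr1i3, which encodes the constitutive androstane receptor CAR, was at 952 and 1165, and Nr1i2, which encodes the pregnane X receptor PXR, at 23.1 and 22.5. Among the other nuclear receptors and their partners, 1 of 27 was higher (3.7%, against 2.27% of all genes): Ppargc1b, a coactivator of mitochondrial and lipogenic genes, at 22.9 and 42.7 (1.87-fold).

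Kupffer cell markers were lower on Wy14643. Of 14 measured markers, 12 were above background on at least 1 null array and, by the deposited values, all 12 were at least 1.5-fold lower (median log2 ratio -0.95, against 0.00 over all genes and a 4.4% share of lower genes). Above background on both arrays were 11, all of them lower (median -0.98). With 32 added to every intensity, which shrinks the ratios of dim genes, 7 of the 12 were called (median -0.71), and with values below background set to background 11 were. The summed intensity of all 14 was 3703 on the control and 1903 on the Wy14643 array, the largest part of it from Slc40a1. Vsig4, a complement receptor that marks resident macrophages, was at 175 and 37.2 (4.69-fold lower). With each gene read from 1 probe set, this was the largest drop of all genes above background on both arrays. A further probe set of Hspa1b, above background on both, gave a log2 ratio of -2.42, against -2.23 for Vsig4. Fcna, a lectin of the complement system, was at 114 and 35.1 (3.25-fold lower). Clec4f, a lectin found in rodents on Kupffer cells alone, was at 104 and 41.3 (2.52-fold lower). The complement C1q genes, which liver macrophages make, were lower too: C1qc at 57.6 and 21.0, C1qa at 81.6 and 39.6, and C1qb at 382 and 248. Cd5l, a macrophage-secreted scavenger protein, was at 319 and 162 (1.97-fold lower), and the receptor for macrophage growth factor Csf1r at 112 and 66.1 (1.70-fold lower, with -0.57 and -0.90 by its other probe sets). Adgre1, the macrophage antigen F4/80, was at 56.3 and 34.1, and Cd163, a scavenger receptor for haemoglobin, at 42.1 and 25.5. For Folr2, below background on Wy14643, the data allow only a drop of at least 1.04-fold. Folr2 passed the filter through the control array, where it is high, so its ratio had to lie below 0. Slc40a1, the iron exporter ferroportin, is on this list but is also made by hepatocytes, and it was at 2227 and 1167, with -0.93 by both of its probe sets. Cd68 and Marco were below background on both arrays.

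Genes of monocytes and macrophages in general leaned the same way less strongly. Of 16 measured, 11 were above background on at least 1 array, and 4 of these were lower (36.4%, against 4.4% of all genes) and 0 higher (median -0.47). Of the 9 above background on both arrays, 3 were lower. With 32 added to every intensity 2 were lower (median -0.19). Lyz2, the macrophage lysozyme, was at 264 and 112 (2.35-fold lower), and Tyrobp, a signalling adaptor of myeloid cells, at 30.1 and 17.2 (1.75-fold). Lyz1 was at 782 and 442, but both of its bright probe sets are of a kind that may bind several transcripts, and the remaining one was below background. Mpeg1, a pore-forming protein of macrophages, lay between at 219 and 158, and Ccr2, the receptor that guides monocytes into tissue, was level at 18.6 and 17.6. The list of MHC class II and antigen processing had 2 of 9 genes lower (22.2%), Lgmn and Ifi30, both lysosomal enzymes of antigen processing, whereas Cd74, the class II chaperone, was at 356 and 290.2. Cxcl1, a chemokine that draws neutrophils, was at 347 and 142 (2.45-fold lower).

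Sinusoidal endothelial markers were split between genes that were clearly lower and others that were level. Of 16 measured, 15 were above background on at least 1 array, 9 of these were lower (60%, against 4.4% of all genes) and 0 higher (median -0.71). Of the 12 above background on both arrays, 7 were lower (median -0.69). With 32 added to every intensity 3 were lower and the median was -0.30. Clec4g, a lectin of liver sinusoids, was at 296 and 81.0 (3.65-fold lower). Mrc1, the mannose receptor of sinusoidal endothelium and macrophages, was at 864 and 275 (3.14-fold lower). Fcgr2b, an inhibitory Fc receptor abundant on sinusoidal endothelium, was at 901 and 343 (2.63-fold lower), and its 3 other probe sets gave log2 ratios from -1.85 to -0.37. Oit3 (36.9 and 17.7), the angiopoietin receptor gene Tek (54.2 and 29.6), Flt4 (82.8 and 50.5) and endoglin (Eng, 211 and 134) followed. Cdh5, the endothelial cadherin, and Kdr, the receptor of vascular endothelial growth factor, were below background on Wy14643, which bounds their drops at 1.59-fold and 1.29-fold or more. Both passed the filter through the control array, where they are high, so their ratios had to lie below 0. By contrast Stab2, a scavenger receptor that defines these cells, was at 196 and 188, Egfl7 at 64.1 and 62.1 and Lyve1 at 19.5 and 21.6, so not all defining markers differed.

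Other genes named for the size of their drop are on none of the marker lists, and the part of the cell markers in their values was not tested. Aqp1, a water channel of endothelium and bile ducts, was at 307 and 76.5 (4.01-fold lower). Bmp2, a growth factor from sinusoidal endothelium that controls hepcidin, was at 110.1 and 39.4 (2.80-fold lower). Gja1, the gap junction protein connexin 43, was at 200.4 and 66.4 (3.02-fold lower), with all of its 5 other probe sets below 0. Srgn, a proteoglycan of haematopoietic and endothelial granules, was at 189 and 72.9, and Plxnc1, a semaphorin receptor, at 207 and 75.9. Fli1, a transcription factor of blood and endothelium that was above background on the control array only, was at least 2.53-fold lower, and Cd93, an endothelial and myeloid surface protein seen on the same array only, at least 1.77-fold lower.

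Stellate cell and matrix genes did not share this pattern. Of 19 above background, 4 were higher (21.1%, against 2.27% of all genes) and 1 lower (5.26%, against 4.4%), with a median of 0.12. With 32 added to every intensity 3 were higher and 0 lower (median 0.04). Pdgfrb, the platelet-derived growth factor receptor of these cells, was at 93.5 and 176 (1.88-fold higher), Reln at 161 and 281 and Col3a1, a fibrillar collagen, at 53.9 and 92.9. Tgfbi was at 328 and 515, but 2 of its 4 probe sets gave 0.18 and 0.01. Lrat and Des, which define quiescent stellate cells, were below background on both arrays, and Dcn, an abundant matrix proteoglycan, was at 1304 and 1577. Rgs5, a pericyte gene, was the lower one, at 976 and 642, but another Rgs5 probe set above background was level (0.029) and a dimmer one gave -0.75.

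Calprotectin genes of neutrophils and monocytes stood out in the other direction. S100a8 was at 15.7 and 106 (6.75-fold higher) and its partner S100a9 at 17.6 and 105 (5.95-fold higher), the largest ratios after that of Cyp4a14 among genes above background on both arrays. In wild-type liver they were at 12.9 and 14.5 and at 13.99 and 13.2, close to background on both diets. Of the other neutrophil markers, Ngp was at least 1.36-fold higher while 8 of the 12 measured lay between the thresholds, the brightest of these at 18.5, and 6 of the 12 were below background on both arrays. With 32 added to every intensity 2 of the 3 calls in this list remained. Ngp was seen on the Wy14643 array only and passed the filter through the array where it is high, so its ratio had to lie above 0. Of 8 measured B cell markers 4 were above background on at least 1 array and 3 of these were called higher, while 5 of the 8 were not called. Only 2 were above background on both arrays, Jchain and Ighm, and both were called higher, where 2.27% of all genes were. Ms4a1 was seen on the Wy14643 array only, so its ratio too had to lie above 0. With 32 added to every intensity 1 was called. Jchain, the joining chain of secreted immunoglobulin, was at 18.7 and 46.8 (2.49-fold), Ighm, the μ heavy chain, at 27.0 and 54.5 (2.02-fold, with 1.03 and 1.21 by a pair of its dimmer probe sets and 0.19 to 0.44 by 3 others), and Ms4a1 at least 1.53-fold. Cd79a and Cd22, which define B cells, were below background on both arrays. T cell markers had 0 of 3 differing, erythroid markers 0 of 3, and no NK cell marker was above background.

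**Figure D3:**
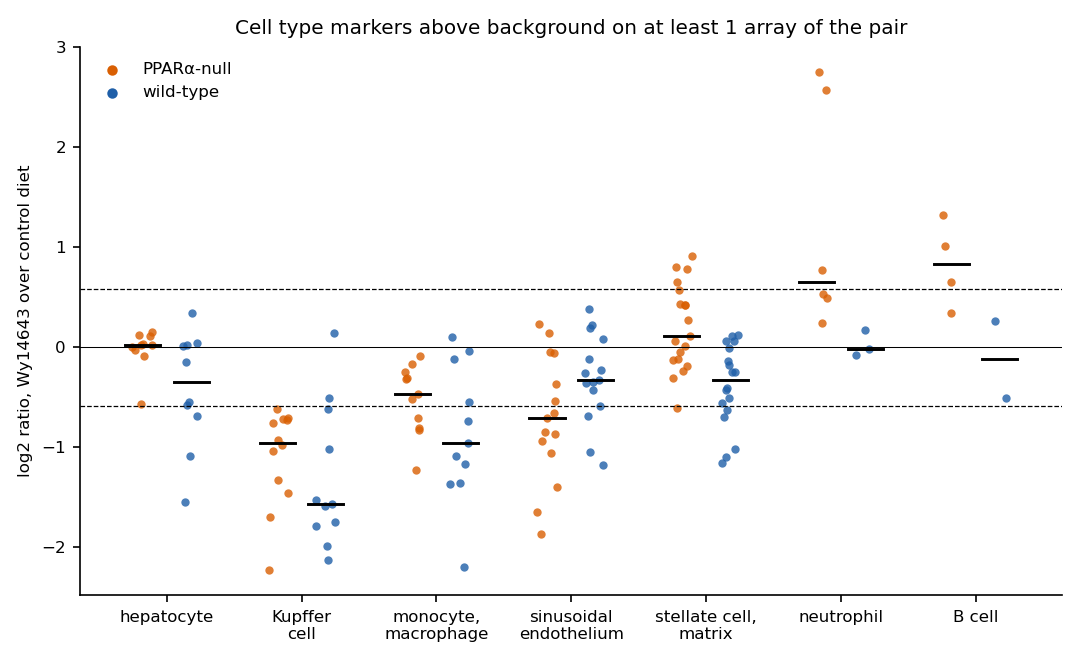
Log2 ratio, Wy14643 over control, for markers of 7 cell types in PPARα-null (orange) and wild-type (blue) liver; each point is 1 gene above background on at least 1 array of its pair, bars are medians and dashed lines mark 1.5-fold. By the deposited values all 12 Kupffer cell markers lie below the lower line in PPARα-null liver, 11 of them above background on both arrays. S100a8 and S100a9 are the 2 highest points. A marker above background on 1 array only passed through the array where it is high.

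The same marker lists in wild-type liver differed in part. Kupffer cell markers were lower there as well, 9 of 11 above background, with a median of -1.57. Sinusoidal endothelial markers had 4 of 15 lower and a median of -0.33, and Oit3, Tek, Flt4 and Eng, all lower in null liver, had log2 ratios of 0.38, 0.19, 0.08 and -0.12. Stellate cell genes had 0 higher and 5 lower of 18 in wild-type liver, among them Pdgfrb (109 and 48.8) and Reln (146 and 89.8), the reverse of null liver. No wild-type hepatocyte marker was higher and 3 were lower. The differences between the genotypes were not tested.

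Genes of tissues next to liver were looked up as well. Cela1, an elastase, was at 383 and 126 (3.04-fold lower), while the 11 other measured markers of pancreas acinar cells lay between the thresholds, the brightest of them at 18.7. Of 10 measured skeletal muscle markers, 5 were below background on both null arrays and 5 were seen on the Wy14643 array only. Those 5 passed the filter through the array where they are high, so their ratios had to lie above 0. Of them 4 were called higher (median 0.60). With values below background set to background 2 were called (median 0.28), and with 32 added to every intensity 0. Acta1 was at least 2.25-fold, Myh1 at least 1.80-fold and Myl1 at least 1.61-fold higher on Wy14643, at intensities of 29.4, 23.5 and 21.0, with Myh1 named by its level and not from the marker list. The other calls, Mb and Tnni2, are bounded at only 1.22-fold and 1.04-fold or more. Acta1 was at 35.5 on the wild-type control array. Ppbp, a platelet chemokine, was at least 1.71-fold higher, whereas Pf4, the other platelet gene above background, was at 25.2 and 37.1.

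Part of the cholesterol synthesis pathway was lower on Wy14643 in PPARα-null liver: 7 of 17 genes were called and 10 lay between the thresholds. In this pathway acetyl-CoA is built by way of mevalonate and squalene into sterols, and its genes are switched on together by the transcription factor SREBP-2 when sterols run short. All 17 measured genes were above background on both arrays and all had a log2 ratio below 0 (median -0.53, against 0.00 over all genes), and the called ones were 41.2% of them, against 4.4% of all genes. Fdps, which makes farnesyl diphosphate, was at 1705 and 605 (2.82-fold lower), its other probe set being below background on both arrays. Hmgcs1, at the entry of the pathway, was at 3957 and 2576 (1.54-fold lower), and Pmvk, a kinase of mevalonate phosphate, at 209 and 116 (1.80-fold). Of the genes that turn lanosterol into cholesterol, Cyp51 was at 849.9 and 506 (1.68-fold lower, with -1.63 by another probe set above background), Msmo1 at 3777 and 2398 (1.58-fold) and Sc5d at 2861 and 1818 (1.57-fold). Lss, which closes the ring of lanosterol, was at 260.0 and 128 (2.03-fold lower) by a probe set that may bind several transcripts, while another above background was level at 30.6 and 29.8. Sqle, the squalene epoxidase, missed the threshold at 457 and 316, as did Idi1 at 2786 and 2065, and Mvk and Tm7sf2 were nearly level at -0.16 each. Without the probe sets that may bind several transcripts, or with the median over a gene's probe sets, 4 genes in place of 7 reached 1.5-fold. The former setting leaves Pmvk and Msmo1 without a probe set.

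**Figure D4:**
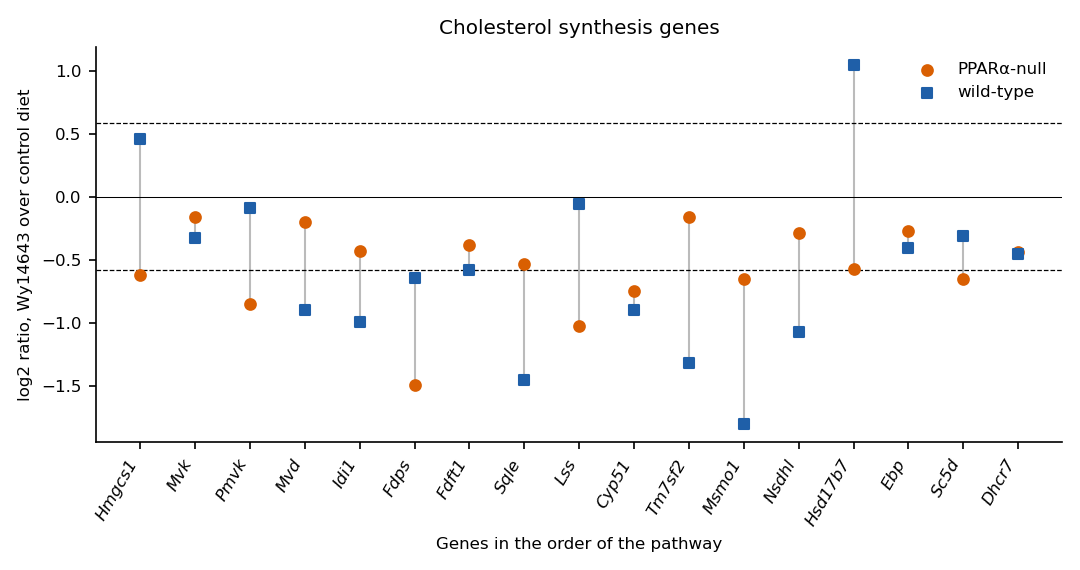
Log2 ratio, Wy14643 over control, for 17 genes of cholesterol synthesis in pathway order, in PPARα-null (orange circles) and wild-type (blue squares) liver, with dashed lines at 1.5-fold. Every orange circle lies below 0, from -0.16 for Mvk to -1.50 for Fdps, and Hmgcs1 and Hsd17b7 are the only blue squares above 0.

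Upstream stretches of Lss, Pmvk and Cyp51, 3 of the 4 lower genes with the largest ratios, are shown because members that differ together can be read for shared letters. Each is the 250 bases before the gene's start in the RefSeq annotation of GRCm38.p6, 5′ to 3′ on the gene's strand, with CCAAT or its reverse complement in capitals. Lss lies at chr10:76531355-76531604 on the plus strand, Pmvk (the first of 2 starts listed) at chr3:89454291-89454540 on the plus strand and Cyp51 at chr5:4104698-4104947 on the minus strand.
Lss: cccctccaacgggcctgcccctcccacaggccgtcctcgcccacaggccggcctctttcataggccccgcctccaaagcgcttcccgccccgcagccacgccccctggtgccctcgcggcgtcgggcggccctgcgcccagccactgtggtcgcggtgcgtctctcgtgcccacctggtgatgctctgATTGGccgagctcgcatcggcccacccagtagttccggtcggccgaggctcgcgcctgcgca
Pmvk: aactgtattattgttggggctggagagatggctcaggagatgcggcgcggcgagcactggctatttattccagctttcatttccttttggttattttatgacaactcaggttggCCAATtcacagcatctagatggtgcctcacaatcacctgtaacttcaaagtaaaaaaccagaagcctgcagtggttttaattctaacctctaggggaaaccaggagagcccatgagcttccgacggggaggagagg
Cyp51: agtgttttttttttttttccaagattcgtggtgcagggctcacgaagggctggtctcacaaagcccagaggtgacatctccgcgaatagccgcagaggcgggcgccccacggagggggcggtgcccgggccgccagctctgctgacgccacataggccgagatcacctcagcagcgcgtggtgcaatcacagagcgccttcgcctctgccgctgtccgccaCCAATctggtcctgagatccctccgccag
The capitals lie at bases -62 to -58 of Lss (reverse strand), -136 to -132 of Pmvk and -29 to -25 of Cyp51, counted back from the start. CCAAT, the letters bound by NF-Y, was found on either strand in 14 of 17 windows (82.4%) of the 14 cholesterol synthesis genes that the promoter table holds and in 33.8% of all 32851 windows of this length. TCACNCCAC, a form of the sterol regulatory element, was found in 1 of the 17 windows (5.88%) and in 1.05% of all windows. A match describes letters in a window and is neither a site nor a cause.

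The genes around the pathway showed no such shift. Of 16 measured regulators of SREBP and genes of sterol uptake or export, all above background on both arrays, 0 were called in either direction (median 0.07). Srebf2, which encodes SREBP-2, was at 22.4 and 26.9, Insig2 at 2492 and 2443, and Stard4, a sterol carrier regulated by SREBP-2, at 865 and 671. In wild-type liver 8 of the 17 synthesis genes were lower and 1 was higher, with a median of -0.58, and 3 genes were lower in both genotypes (Fdps, Cyp51 and Msmo1). Hmgcs1, Pmvk and Lss had log2 ratios of 0.46, -0.09 and -0.06 in wild-type liver, while Sqle, Idi1 and Tm7sf2 were called lower there and not in null liver. These differences were not tested.

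Fatty acid synthesis genes were lower in part. Of 26 genes of fatty acid and triglyceride synthesis above background, 6 were lower (23.1%, against 4.4% of all genes) and 1 higher (3.85%, against 2.27%), but the median of the list was -0.06. Acss2, which makes cytosolic acetyl-CoA from acetate, was at 1360.2 and 648 (2.10-fold lower), with -0.37 by its other probe set. Fasn, the fatty acid synthase, was at 906 and 504 (1.80-fold lower), Acly, the ATP citrate lyase, at 2872 and 1895 (1.52-fold, with -1.45 and -0.50 by its other bright probe sets) and Elovl6, an elongase, at 165 and 106 (1.56-fold, with -0.40 by another probe set). Lpin1, a phosphatidate phosphatase, was at 1723 and 983, and Pgd, which supplies NADPH, at 809 and 491, while dimmer probe sets of Pgd gave -0.41 and -0.51. Dgat1, which completes triglycerides, was the higher one at 66.7 and 105. Fasn and Acss2 were level in wild-type liver, with log2 ratios of 0.15 and 0.08. Pltp, the phospholipid transfer protein, was at 508 and 192 in null liver (2.64-fold lower) and at 758 and 3403 in wild-type liver.

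Drug- and bile acid-handling genes differed singly. Of all genes, 2.27% were higher and 4.4% lower. Of 12 genes of bile salt and organic anion transport above background, 2 were higher (16.7%), 1 was lower (8.33%) and 9 lay between (median 0.02). Abcc3, an exporter of conjugated bile acids and drugs at the blood side of hepatocytes, was at 1059.7 and 2027 (1.91-fold higher), and Abcb4, the phospholipid exporter of the canaliculus, at 1050.4 and 1846 (1.76-fold). Both were also higher in wild-type liver. Slco2a1, a prostaglandin transporter, was the lower one, at 215 and 128 (1.68-fold). Cyp3a11, the classical target of PXR, was at 2299.7 and 4052 (1.76-fold higher), and Gstm3, a glutathione transferase, at 50.6 and 96.4 (1.91-fold). Of 29 CAR and PXR responsive genes above background, 3 were higher (10.3%) and 2 lower (6.9%), both above the shares of all genes. The median of this list was 0.05. Of 32 Nrf2 responsive genes 4 were higher (12.5%), adding Ephx1 (2389.7 and 3654) and Ces1g (419 and 669) to Abcc3 and Gstm3. On the same list 2 were lower (6.25%), and the median was 0.08. In bile acid synthesis 3 of 16 genes were lower (18.8%), the oxysterol hydroxylases Cyp7b1 (3126 and 1845) and Cyp39a1 (180.1 and 96.3) and the FGF co-receptor Klb (47.6 and 30.3). Ugt2b37, a glucuronosyltransferase, was at 669 and 220.3 (3.04-fold lower).

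Sex-biased liver genes were mixed. Of 18 male-biased genes above background 3 were higher and 3 lower (16.7% each, median 0.15), where 2.27% of all genes were higher and 4.4% lower. Of 22 female-biased genes 1 was higher, Cyp4a14 (4.55%), and 5 were lower (22.7%, median -0.11). Hsd3b2, a steroid dehydrogenase, was at 74.5 and 30.8 (2.42-fold lower), Hao2, a peroxisomal hydroxyacid oxidase, at 2745 and 1174 (2.34-fold lower), and Rtn4 at 1594 and 983 (1.62-fold lower, with -0.20 by its other probe set). C9, a terminal complement component, was at 2581 and 4865 (1.88-fold higher).

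Clock genes pointed to both directions. Of 22 above background on at least 1 array, 2 were higher (9.09%, against 2.27% of all genes) and 4 lower (18.2%, against 4.4%), with a median of 0.05. With 32 added to every intensity 1 was higher and 2 were lower. Usp2, a deubiquitinase with a strong daily rhythm in liver, was at 43.9 and 140.0 (3.19-fold higher), with 0.82 by its other probe set. Nfil3, a repressor that peaks opposite to Dbp, was at 60.1 and 27.6 (2.18-fold lower), and the repressors Bhlhe40 (770.3 and 414) and Per2 (40.5 and 25.9) were lower too. Dbp and Tef, the activators of the same family as Nfil3, lay between at 1568 and 2218 and at 347 and 478. The core genes were not all alike: Clock (44.2 and 43.2) and Cry1 (22.3 and 22.1) were level. Per2 was lower, and Arntl went from 19.4 to below background (at least 1.49-fold lower). The hour of death of each pool is not given in the labels, so its part in these values was not tested.

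Heat shock and early response genes were also split. Hspa1b, the inducible chaperone HSP70, was at 186 and 63.4 (2.94-fold lower), its 2 other probe sets gave -2.42 and -1.46, and the near-identical Hspa1a was below background. Its partner Dnajb1 was at 159 and 72.9 (2.18-fold lower), whereas Hsph1, a larger chaperone, was at 383 and 600.4 by one probe set and level (80.7 and 82.9) by the other. Of 20 heat shock genes above background 2 were higher and 3 lower, and in wild-type liver 11 were higher. Of 25 immediate early genes, Ccn2 (40.0 and 83.4), Btg2 (134 and 253), Junb (175 and 289) and Egr1 (502 and 821) were higher and Klf10 (190.5 and 75.2), Klf6 (63.8 and 42.0) and Klf2 (at least 1.55-fold) lower. Zbtb16 and Fkbp5, both known to be switched on by glucocorticoids, were lower, the former from 54.0 to below background (at least 4.13-fold) and the latter at 153 and 100.5. Txnip, a glucose-regulated inhibitor of thioredoxin, was at 327 and 118 (2.77-fold lower), with -1.20 by its other probe set. In wild-type liver Txnip was lower too, at 458 and 51.0 (8.97-fold). Ccnd1, the G1 cyclin D1, was at 224 and 419 (1.86-fold higher), with 1.30 and 0.66 by its other probe sets, and it was the only one of 24 cell division genes that differed.

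A few interferon-induced genes were higher and most lay between the thresholds. Of 44 measured, 38 were above background on at least 1 array, 5 of these were higher (13.2%, against 2.27% of all genes) and 1 lower, and the median was 0.10. Igtp, an interferon-γ-induced GTPase, was at 83.8 and 142 (1.69-fold), Ifit1, an antiviral RNA-binding protein, at 18.6 and 29.6 (1.59-fold), Tap1, the peptide transporter, at 14.9 and 23.4, Usp18 at 15.4 and 23.95 and the chemokine Cxcl10 at 32.5 and 49.6. All but Igtp were dim, and with 32 added to every intensity Igtp alone of the 5 was still called (1 of 38, median 0.05), with log2 ratios from 0.24 for Tap1 and Usp18 to 0.34 for Cxcl10 in the other 4. Ifih1, a sensor of viral RNA, was at 372 and 233 (1.59-fold lower). In wild-type liver 0 of 32 were higher and 20 lower. The 250 bases before the start of Igtp (chr11:58199306-58199555, plus strand), Ifit1 (chr19:34640639-34640888, plus strand) and Ifih1 (chr2:62646256-62646505, minus strand), the called genes of this list with the largest ratios that the RefSeq table holds, are shown for comparison. Capitals mark the core of the interferon-stimulated response element, a pair of GAAA runs set apart by any NN, on either strand.
Igtp: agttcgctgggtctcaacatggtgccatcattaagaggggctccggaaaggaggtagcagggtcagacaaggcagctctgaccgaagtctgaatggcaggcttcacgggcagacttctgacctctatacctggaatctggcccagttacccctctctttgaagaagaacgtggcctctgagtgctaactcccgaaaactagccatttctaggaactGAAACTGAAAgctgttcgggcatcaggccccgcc
Ifit1: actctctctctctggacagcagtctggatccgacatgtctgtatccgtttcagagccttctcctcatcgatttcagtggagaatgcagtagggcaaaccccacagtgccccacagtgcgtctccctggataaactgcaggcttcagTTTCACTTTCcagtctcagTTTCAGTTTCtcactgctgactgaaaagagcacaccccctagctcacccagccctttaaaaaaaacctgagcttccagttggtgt
Ifih1: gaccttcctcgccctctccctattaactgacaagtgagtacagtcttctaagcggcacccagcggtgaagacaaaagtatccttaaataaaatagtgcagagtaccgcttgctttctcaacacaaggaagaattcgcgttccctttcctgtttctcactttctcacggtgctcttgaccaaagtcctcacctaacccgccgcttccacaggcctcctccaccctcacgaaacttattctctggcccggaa
The capitals lie at bases -34 to -25 of Igtp and, on the reverse strand, at -104 to -95 and -85 to -76 of Ifit1, and the window of Ifih1, the lower gene, does not hold these letters. These letters were found in 15 of 39 windows (38.5%) of the 33 interferon-induced genes in the promoter table and in 2.98% of all windows, whether or not the gene differed on Wy14643.

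The remaining genes among the 20 with the largest ratios belong to no common list. Higher were Septin4, a septin of stellate cells and other tissues, at 75.5 and 169.8 (with 0.27 by its other probe set), Fam13c at 14.3 and 31.3, the trefoil peptide gene Tff2 at 32.2 and 63.7, Ngef at 28.5 and 55.1, Polr3f, a subunit of RNA polymerase III, at 88.1 and 166, and Rrs1, a ribosome assembly factor, at 150.3 and 283. Lower were Tmem184c at 199.9 and 67.6, the lipid phosphatase gene Plpp1 at 106 and 40.2 and Ola1, an ATPase, at 94.9 and 36.1, where another Ola1 probe set gave 0.16. Of the genes seen on 1 array only, Npas3, Defb9 and Adamts5 were at least 1.69-fold, 1.60-fold and 1.54-fold higher, and Wif1, Fmn2 and Tha1 at least 1.68-fold, 1.67-fold and 1.64-fold lower.

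Some gene lists held no called gene in PPARα-null liver, where 2.27% of all genes were higher and 4.4% lower. That was so for 12 of 49 lists, with 158 members above background in all, among them 42 respiratory chain subunits (median -0.03), 36 cytosolic ribosomal proteins (median -0.03) and 35 acute phase reactants (median 0.02). Several of the 12 hold too few members above background for a lack of calls to be read: NK cell 0, cholangiocyte 1, and T cell, dendritic cell, erythroid cell and adipocyte 3 each. Amino acid and urea metabolism had 1 of 39 genes higher, Nnmt, which methylates nicotinamide (1468 and 2479), and 1 lower. Glucose metabolism had 1 of 30 lower, Pdk1, a kinase of pyruvate dehydrogenase (1108 and 698). Complement had 6 of 28 lower (21.4%), all of them genes of macrophages or lectins (Vsig4, Fcna, C1qa, C1qb, C1qc and Cfp), and 2 higher (7.14%), C9 and C6 (27.1 and 42.5). Of 31 genes of endoplasmic reticulum stress 1 was higher, Creld2 (118 and 196).

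The genes that differed in PPARα-null liver were set beside their ratios in wild-type liver, a pair that shares no array with them. Of 330 genes lower in null liver, 134 (40.6%) were also lower in wild-type liver, 34 (10.3%) were higher and 162 lay between, where 16.2% of all 7495 genes were lower and 13.7% higher in wild-type liver. Of 170 genes higher in null liver, 34 (20.0%) were also higher in wild-type liver, 38 (22.4%) were lower and 98 lay between. Counted by probe sets, the 48 shared higher calls were 17.7% of 271 in null and 2.84% of 1690 in wild-type liver, and the 222 shared lower calls were 37.4% of 594 and 11.7% of 1893, where 13.4% of all these probe sets were higher and 15.1% lower in wild-type liver. Peg3, an imprinted zinc finger gene, was higher in both, at 20.0 and 39.6 in null and 21.96 and 534 in wild-type liver. Among the widest opposite pairs were Hspa1b, at 137 and 1364 in wild-type liver, and Egr1, Nnmt and C9, which were higher in null liver and stood at only 19.9, 18.9 and 77.9 on the wild-type Wy14643 array. Whether the genotypes differed in these responses was not tested, with 1 array for each group.

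**Figure D5:**
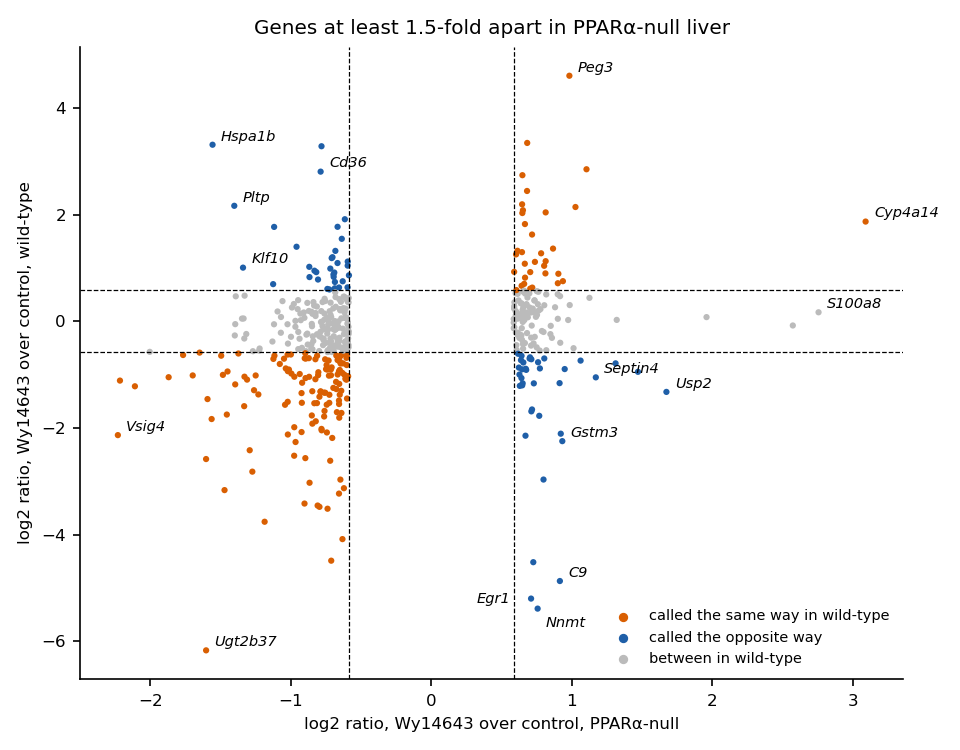
Log2 ratios, Wy14643 over control, of PPARα-null liver on the horizontal and of wild-type liver on the vertical axis, for the 170 higher and 330 lower genes of PPARα-null liver, coloured by their call in wild-type liver, with dashed lines at 1.5-fold. Hspa1b, Pltp, Klf10 and Cd36 lie in the upper left and Usp2, Gstm3, C9, Egr1 and Nnmt in the lower right.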

How the data were processed

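The 4 arrays hold pooled liver RNA of wild-type and PPARα-null mice on the control diet or Wy14643, with 1 array per group. The deposited values are intensities. The authors made these deposited intensities by GCRMA, for which the submitters' processing notes give version 2.20 and which subtracts background, equalizes the distributions of the arrays and summarises probes. Which arrays were normalized together is not given in the sources used here. The values run from 1.55 to 31270.2 and were taken as linear. The 64 Affymetrix control probe sets were removed from the 22690 deposited. Probe sets were named from GEO's platform annotation, with symbols updated through RefSeq: 20380 had 1 gene symbol, 691 several and 1555 none. The probe set with the highest mean log2 value over the 4 arrays stood for each of 12393 genes.

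Ratios of Wy14643 to control were taken on the log2 scale. A ratio of at least 1.5, the study's threshold for unreplicated arrays, was called higher or lower. No test over mice was possible. Where 1 array was below background, the fold is the smallest that background allows, and list counts use the ratio of the deposited values. Genes named are the 20 with the largest ratio in each direction, the 8 brightest seen on 1 array, up to 6 called members of each list, and PPARα, its relatives and the omega-hydroxylation genes. Other members, given as contrasts or to complete a list, were chosen after their values were seen. The comparison, the 33 pathway lists and the 16 cell marker lists were chosen with earlier results of these data known. Sequences are from RefSeq (GRCm38.p6). The ratio calculation was checked on simulated data. Alternatives tried were a filter, a floor, an offset of 32, centring, cyclic loess (limma 3.58.1), fewer probe sets, the median over probe sets, a 2-fold threshold and a 95th-percentile background. Scripts ran in R 4.3.3 and in Python 3.11.15 (matplotlib 3.10.9, pandas 2.3.3, numpy 2.4.6).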

Additional observations from a re-analysis of the deposited data

Results flagged for a closer look

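Of the genes named by the rule given under processing and above background on all 4 arrays, 25 were at least 1.5-fold apart on Wy14643 in opposite directions in PPARα-null and wild-type liver. Each difference rests on 1 pool per group and was not tested.

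Lower in PPARα-null and higher in wild-type liver were Hspa1b (log2 ratio -1.56 in null, 3.31 in wild-type liver), Pltp (-1.40, 2.17), Klf10 (-1.34, 1.01), Dnajb1 (-1.13, 0.70), Cd36 (-0.79, 2.81), Acot3 (-0.74, 0.61), Pgd (-0.72, 0.99), Rtn4 (-0.70, 0.88) and Etfdh (-0.59, 0.86).

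Higher in PPARα-null and lower in wild-type liver were Usp2 (1.67, -1.32), Septin4 (1.17, -1.05), Ccn2 (1.06, -0.74), Ngef (0.95, -0.90), Gstm3 (0.93, -2.25), Btg2 (0.92, -2.11), C9 (0.91, -4.87), Pdgfrb (0.91, -1.16), Reln (0.80, -0.70), Igtp (0.76, -0.77), Nnmt (0.76, -5.39), Bcl6 (0.71, -1.69), Egr1 (0.71, -5.20), Ces1g (0.67, -0.91), Igfbp3 (0.67, -2.15) and Tspan4 (0.62, -0.87). Further probe sets above background missed 1.5-fold in null liver for Btg2 (0.13), Septin4 (0.27), Rtn4 (-0.20), Dnajb1 (-0.53), Cd36 (-0.22 and -0.42) and Pgd (-0.41 and -0.51).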

How the results depend on the processing

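No paired analysis was possible because each group is 1 pooled array and no replicate number is shared. For the same reason no replicate could be left out. As deposited, 298 probe sets were higher and 615 lower in PPARα-null liver, 48 and 222 of them called the same way in wild-type liver, with 7 cholesterol synthesis genes, 12 Kupffer cell markers and 9 sinusoidal endothelial markers lower. With 32 added to every intensity, which shrinks the ratios of dim genes, these became 78, 249, 25, 96, 7, 7 and 3. Centring each array on its median gave 481 higher and 478 lower, and 74 higher calls shared with wild-type liver. Without probe sets that may bind several transcripts, 181 were higher, 30 of them shared, and 4 cholesterol synthesis genes were lower, as with the median over a gene's probe sets (4). At 2-fold the counts were 26, 120, 4, 38, 2, 5 and 4. Cyclic loess and a floor at background moved none of these 7 counts by over 1.5 times. Nor did a 95th-percentile background the 5 counts it was run on, a background filter the 2 probe set counts, or 2 alternatives chosen after seeing the data the 3 list counts, namely all measured members and only those above background on both arrays. Of 151 named genes called, 90 stayed called in the same direction with 32 added, 139 with centring, 143 with loess and 116 with the median over probe sets. The sign turned for Ola1 (0.16), Cryab (-0.039) and Lyz1 (0.10) without the probe sets that may bind several transcripts, and for Tfrc (-0.022) with the median over probe sets. The cause was not tested. Genes near background carry the least certain ratios.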
